A study of Mus musculus with 2 samples.

Results

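Within the luminal compartment of the mouse mammary gland, the cells with the strongest stress response were the 301 cells, of 10494 cell barcodes in the series, with the highest score over 8 stress genes. Barcodes entered with 500 or more detected genes and no more than 10% of their unique molecular identifiers (UMIs, counted molecules) from mitochondrial genes. Luminal cells were gated by keratin 18 (Krt18) at 50 or more UMIs per 10000 UMIs of the cell. The score was the mean of the natural logarithm of 1 plus the UMIs per 10000 of Atf3, Fos, Fosb and Egr1, which are immediate early genes, and of Hspa1a, Hspa1b, Dnajb1 and Hspb1, which are heat shock genes. The top 5% of the gate in each library were taken as members, so that they were chosen by the measured levels of these 8 genes and of Krt18. They were 108 of 2146 gated cells in the library called Ctrl and 193 of 3849 in the library called cKO. The 2038 and 3656 other gated cells were the rest.

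Both libraries held primary mammary cells of C57BL/6 mice, enriched by FACS after digestion of the glands. Mice of both groups carried floxed alleles of the microRNA cluster (miR-200c/141-flox/flox), and cKO mice also carried K8-CreERT2, a tamoxifen-inducible Cre recombinase driven by the promoter of the luminal keratin 8. Per the labels, tamoxifen was given at 8 to 10 weeks of age and glands were taken 4 weeks later in both groups, and the age label reads 8 weeks. How many mice entered a library was not stated. With 1 library per group no test between groups was possible, and every interval below is a 95% interval for counting error only. Levels are UMIs per 10000 in a single cell, and counts per 1000000 UMIs (CPM) where UMIs were summed over cells, and ratios are differences of log2 CPM. Because the 8 genes chose the members, their levels and those of all other genes in the same contrast are given as descriptions.

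Immediate early genes encode factors such as Fos and Egr1 that are transcribed within minutes of a signal without new protein synthesis, and Atf3 is a related factor induced by many forms of stress. Heat shock genes encode chaperones that bind unfolded proteins, and they are switched on by heat shock factor 1, which recognises inverted repeats of GAA. In the mammary gland, luminal cells comprise hormone-sensing cells and luminal progenitors, and enzymatic dissociation of tissue is known to induce both gene groups in epithelial cells.

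The promoters of members of both groups are shown because the genes that chose the cells fall into these groups. Windows of 250 bases upstream of the start were read from RefSeq (GRCm38.p6), with matches in capitals. They were found for 7 of the 8 score genes and for 11 of 14 other genes high in members, and a gene counted once if any of its start sites held a match. A heat shock element of 3 alternating GAA and TTC units, each 2 bases apart and on both strands, lay in 0.514% of 27025 genes and in 0 of these 18. The CArG box, in 1.62% of all genes, and the full cAMP response element TGACGTCA, in 1.77%, also had 0 matches in these 18. At shares this low, 0 matches among 18 genes say little about them. Egr1 had no window, and sequence farther upstream than 250 bases was not searched. The shorter forms below were added after those results. A heat shock element of 2 units, GAANNTTC or TTCNNGAA, lay in 3 of 7 score genes (Hspa1a, Hspa1b, Hspb1), in 3 of 11 others (Dnaja1, Dnaja4, Hsph1) and in 14.5% of all genes. It is marked in the first 3 sequences.
Hspa1a, chr17:34972157-34972406, minus strand: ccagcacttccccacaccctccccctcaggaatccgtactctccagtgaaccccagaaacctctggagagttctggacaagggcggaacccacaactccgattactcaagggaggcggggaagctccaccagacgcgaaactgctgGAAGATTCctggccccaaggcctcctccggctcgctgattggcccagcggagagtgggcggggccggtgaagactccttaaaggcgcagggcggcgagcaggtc
Hspa1b, chr17:34959239-34959488, minus strand: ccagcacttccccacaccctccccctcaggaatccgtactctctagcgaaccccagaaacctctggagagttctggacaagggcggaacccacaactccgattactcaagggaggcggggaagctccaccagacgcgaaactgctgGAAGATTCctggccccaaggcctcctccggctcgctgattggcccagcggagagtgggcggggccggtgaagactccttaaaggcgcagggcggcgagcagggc
Hsph1, chr5:149636337-149636586, minus strand: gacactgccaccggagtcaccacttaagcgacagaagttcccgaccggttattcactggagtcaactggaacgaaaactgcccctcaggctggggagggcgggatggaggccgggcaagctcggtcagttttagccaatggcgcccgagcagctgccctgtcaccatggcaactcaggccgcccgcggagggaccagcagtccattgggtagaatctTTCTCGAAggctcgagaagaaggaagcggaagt
The windows of Hspa1a and Hspa1b differed at 3 of 250 bases. The core of the cAMP response element, TGACG or CGTCA, is contained in the full element and lay in 5 of 7 score genes, in 5 of 11 others and in 19.8% of all genes. The AP-1 site TGAGTCA or TGACTCA lay in 0 of 7 score genes, in 2 of 11 others and in 5.16% of all genes, and the CCAAT box, CCAAT or ATTGG, in 3, in 5 and in 37.5%. The core is marked in Fos and in Nr4a1, an immediate early nuclear receptor.
Fos, chr12:85473640-85473889, plus strand: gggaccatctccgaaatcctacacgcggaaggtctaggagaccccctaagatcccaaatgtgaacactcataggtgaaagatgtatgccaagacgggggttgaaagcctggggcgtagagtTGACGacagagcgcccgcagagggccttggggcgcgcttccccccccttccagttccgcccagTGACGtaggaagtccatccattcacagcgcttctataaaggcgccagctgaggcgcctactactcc
Nr4a1, chr15:101266596-101266845, plus strand: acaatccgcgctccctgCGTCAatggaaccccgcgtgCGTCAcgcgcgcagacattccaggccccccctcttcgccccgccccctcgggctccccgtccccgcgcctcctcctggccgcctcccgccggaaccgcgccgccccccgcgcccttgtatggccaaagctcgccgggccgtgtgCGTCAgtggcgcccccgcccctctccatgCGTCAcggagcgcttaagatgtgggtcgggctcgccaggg
A match is a description of these letters and not a bound site.

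The libraries held 95520633 UMIs in 4237 barcodes (Ctrl) and 103668011 UMIs in 6257 barcodes (cKO). Members were shallower than the rest, with a median of 26503 against 29854 UMIs per cell in Ctrl and 14161 against 16841 in cKO. At 2000 UMIs per cell, members still had fewer genes, with medians of 925 against 968 and 872.5 against 944, and 4 members too shallow for this were left out. Their median mitochondrial share was 2.47% against 2.33% in Ctrl and 2.62% against 2.06% in cKO, and that of the nuclear RNA Malat1 was 1.96% against 1.77% and 3.30% against 2.40%. The part of these differences in the results was not tested. Scrublet called 0 Ctrl and 3 cKO members as doublets, and its low call rates (0.263% and 1.06% of kept cells) leave doublets undetected. Of 6 barcodes found in both libraries, 1 belonged to a member.

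The score formed one broad peak with a long upper tail in each library. The median over gated cells was 1.16 in Ctrl and 1.07 in cKO, and the 5% cut lay at 2.08 and 2.34. Member scores reached 4.34 in Ctrl, with a median of 2.65, and 5.16 in cKO, with a median of 3.06. The cut did not fall in a gap. The lowest member scored 2.083 and the highest cell outside 2.082 in Ctrl, against 2.341 and 2.333 in cKO. Within 0.1 of the cut lay 18 members and 29 other cells in Ctrl, and 18 and 24 in cKO. The members are thus the upper end of a range of the score, which does not say whether they are a cell type of their own.

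**Figure D1:**
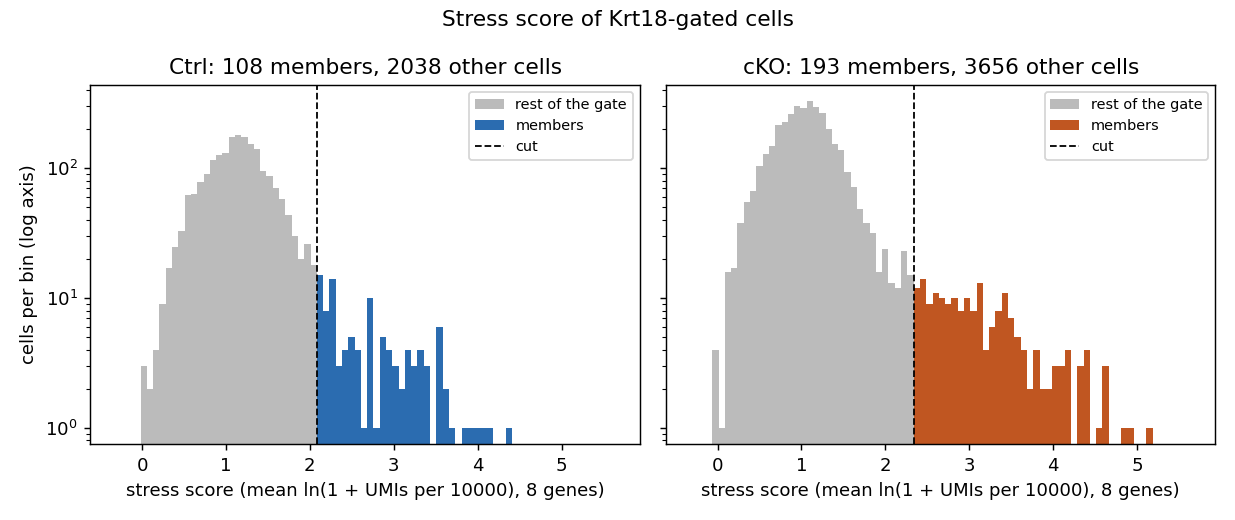
Number of gated cells (log axis) by stress score (mean natural log of 1 plus UMIs per 10000) in Ctrl (left) and cKO (right), with the 5% cut dashed and members in colour. The distribution runs through the cut at 2.08 and 2.34 without a gap, and the tail reaches 4.34 and 5.16.

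The 4 immediate early score genes were high in most but not every member. Atf3 ranged from 0 to 137 UMIs per 10000 in Ctrl members, with a median of 18.5 against 1.15 in the rest. In cKO members it ranged from 0 to 613, with a median of 49.2 against 1.67. The lowest members of both libraries thus lay inside the range of the rest, while the median members lay above the upper quartile of the rest. Summed over cells, Atf3 was 3.03 log2 units higher in Ctrl members than in the rest (interval 2.99 to 3.07) and 3.65 in cKO. Fos had medians of 23.6 against 7.28 in Ctrl and 77.1 against 8.52 in cKO, with highest members at 211 and 785. The highest other cells reached 213 and 383, so the highest Fos value of Ctrl lay outside the members. Its summed ratio was 1.59 log2 units in Ctrl and 2.56 in cKO. Fosb, a Fos paralog, was higher by 1.70 and 2.47, and Egr1, a zinc-finger factor, by 1.47 and 2.28.

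Of the 4 heat shock score genes, Hspa1a, an inducible HSP70, had the largest ratio of all 8. It ranged from 0 to 466 UMIs per 10000 in Ctrl members with a median of 37.4, and the rest had a median of 0.977. In cKO members it ranged from 0 to 485 with a median of 35.4, against 0.525. Its summed ratio was 4.29 log2 units (4.26 to 4.32) in Ctrl and 5.21 (5.18 to 5.25) in cKO. Hspa1b followed with 3.36 and 4.16, but both genes are near-identical copies and the split of reads between them is uncertain. Dnajb1, an HSP40 that hands clients to HSP70, was higher by 3.05 and 3.98. Hspb1, a small heat shock protein, was the most abundant of the 8 in UMIs, with medians of 87.1 against 10.6 UMIs per 10000 in Ctrl and 112 against 9.65 in cKO. Some members held none of it, while the highest held 1079 and 1337. Its summed ratio was 2.52 log2 units in Ctrl and 3.20 in cKO, below that of Atf3. Together the 8 genes made up a median of 2.34% of a Ctrl member's UMIs and 3.81% of a cKO member's, against 0.343% in the rest of both libraries, and up to 26.1% in a single cell.

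Cells were also ranked by 7 of the score genes and the top 5% taken, and the level of the gene left out was read there. It was higher in all 8 cases and in both libraries. Atf3 was higher by 2.89 log2 units in Ctrl and 3.56 in cKO, and Hspb1 by 2.31 and 3.06. Hspa1a, for which the near-identical Hspa1b stayed in the score, was higher by 4.07 and 4.97. Fos showed the smallest Ctrl value, 1.35, and 2.43 in cKO. For Atf3, 98 of 108 and 183 of 193 of these cells were members, so the values are not separate from the choice.

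The immediate early and the heat shock arm did not pick the same cells throughout. Of the Ctrl members, 44 (40.7%) were in the top 5% of the gate by both arms, 23 by the immediate early arm only, 30 by the heat shock arm only and 11 by neither. In cKO, 114 (59.1%) were in the top 5% by both, 36 and 39 by 1 arm only and 4 by neither. Across gated cells the arms had a Pearson r of 0.26 in Ctrl and 0.50 in cKO. Among the cells outside the top 5% the r was -0.04 and 0.14, and a cut on the sum of both arms lowers this r by itself. Cells of a library share its depth and handling.

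**Figure D2:**
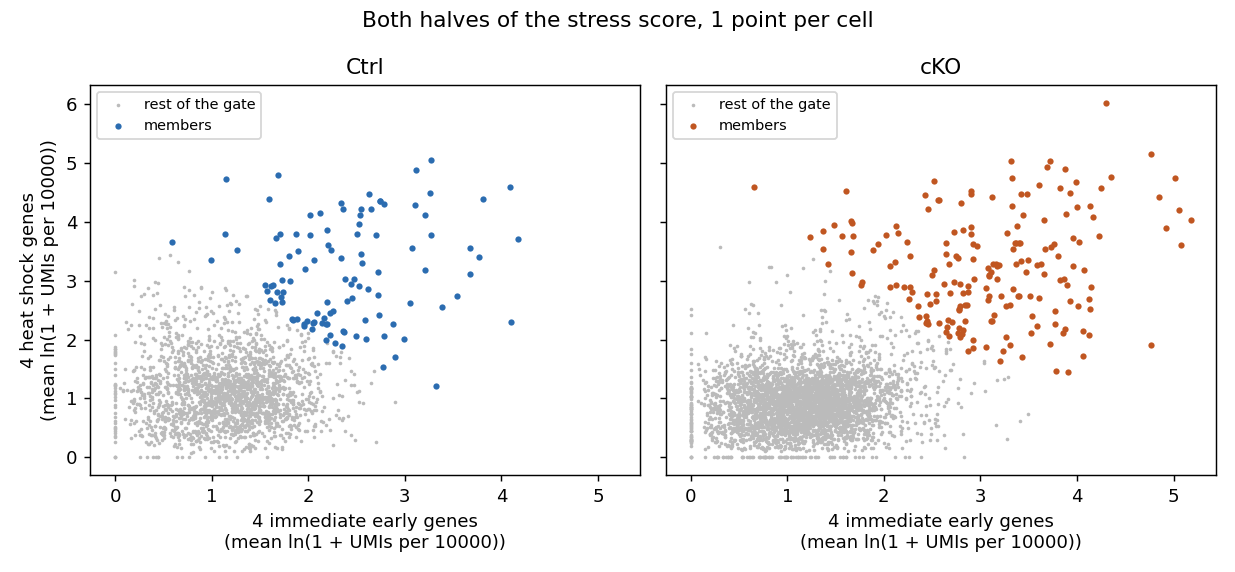
Mean natural log of 1 plus UMIs per 10000 of the 4 heat shock genes against that of the 4 immediate early genes, 1 point per gated cell, in Ctrl (left) and cKO (right). Members (coloured) fill the upper right, where 44 Ctrl and 114 cKO members pass the top 5% on both axes, and some lie high on a single axis.

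Over all genes with at least 400 UMIs in a library, 103 of 8819 (1.17%) were at least 2-fold higher in Ctrl members than in the rest and 105 (1.19%) at least 2-fold lower. In cKO, 188 of 8669 (2.17%) were higher and 298 (3.44%) lower. The median ratio of the genes compared in both was -0.12 log2 units in Ctrl and -0.20 in cKO, and with ratios centred on the median the split turned to 131 higher and 71 lower in Ctrl and to 307 and 153 in cKO. Of the higher genes, 63 were shared, which is 61.2% of the Ctrl and 33.5% of the cKO set, and 55 of them were not score genes. Of the lower genes, 39 were shared, 37.1% of the Ctrl and 13.1% of the cKO set. None was 2-fold higher in one library and 2-fold lower in the other. Across 8388 genes, which are not independent replicates, the ratios of both libraries had a Pearson r of 0.67, or 0.65 without the score genes.

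**Figure D3:**
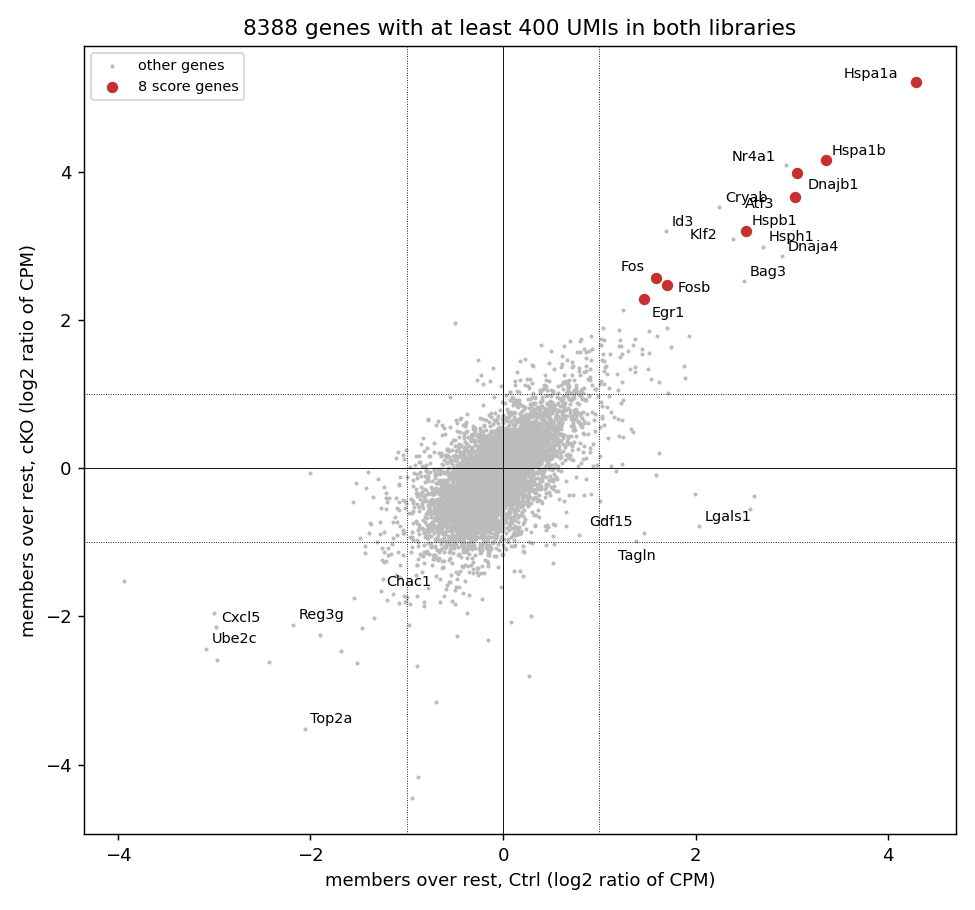
Log2 ratio of summed CPM, members over rest, in Ctrl (horizontal) and cKO (vertical) for 8388 genes, with the score genes in red and dotted lines at 2-fold. The 8 score genes, Nr4a1, Hsph1, Dnaja4, Bag3, Cryab and Klf2 lie at the upper right, and Cxcl5 and Reg3g at the lower left.

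Chaperones and their partners outside the score were among the highest genes. Hsph1, the HSP110 exchange factor of HSP70, was at 526 CPM in Ctrl members against 80.9 in the rest, and at 393 against 49.6 in cKO. These are log2 ratios of 2.70 and 2.99. Dnaja4, another HSP40, was higher by 2.90 and 2.86, and Bag3, an HSP70 co-chaperone in selective autophagy, by 2.50 and 2.52. Cryab, a small heat shock protein, went from 88.1 to 418 CPM in Ctrl and from 98.8 to 1133 in cKO, with log2 ratios of 2.25 and 3.52. Hspb8, the small heat shock partner of Bag3, was higher by 1.94 and 1.78, and Dnaja1 by 1.52 and 1.56.

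The list of 24 further heat shock and chaperone genes, all with at least 100 UMIs, had 12 at least 1.5-fold higher in Ctrl members and 14 in cKO members, and 0 lower. The background at that threshold was 6.92% of genes higher and 10.2% lower in Ctrl, and 9.38% and 18.4% in cKO. The list's median log2 ratio was 0.63 and 0.65, against -0.11 and -0.18 over all genes. Named after their values were seen, the constitutive HSP70 Hspa8 was higher by 1.06 and 1.36 and the HSP90 gene Hsp90aa1 by 1.44 and 1.54. The chaperonin genes Cct2 (-0.16 and -0.12) and Tcp1 (-0.22 and -0.33) and Hsf1 itself (-0.12 and -0.39), also named after their values were seen, were not higher.

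Other immediate early genes were high as well. Of 21 further AP-1 and immediate early genes, 15 were at least 1.5-fold higher in Ctrl members and 15 in cKO members, and 0 lower. Over all genes, 6.92% were higher and 10.2% lower at this fold in Ctrl, and 9.38% and 18.4% in cKO. The median log2 ratio of the list was 0.80 and 0.87. Nr4a1 was at 68.8 against 8.96 CPM in Ctrl and at 116 against 6.84 in cKO, with log2 ratios of 2.94 and 4.09. Egr2, a relative of Egr1, was higher by 2.87 and 3.91, from 39 and 133 member UMIs. Egr3 was higher by 1.51 and 1.85, and Nr4a2 by 1.36 and 2.51. The Krüppel-like factor Klf2 was higher by 2.39 and 3.09, and Csrnp1, a nuclear factor first found as an AXIN1 target, by 1.75 and 1.64. Named after their values were seen, Jun was higher by 0.91 and 1.46, while Ier3 was at 0.19 and -0.14.

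Genes that end immediate early signals were also higher. Of 13 measured feedback genes, 8 were at least 1.5-fold higher in each library's members and 0 lower. The shares over all genes were 6.92% higher in Ctrl and 9.38% in cKO, and 10.2% and 18.4% lower. Per1, a clock gene that also responds acutely to signals, was higher by 1.12 in Ctrl and 2.32 in cKO. Socs3, an inhibitor of JAK-STAT signalling, was higher by 0.70 and 1.72, Zfp36, which destabilises AU-rich mRNAs, by 0.80 and 1.57, and the MAP kinase phosphatase Dusp1 by 0.86 and 1.38. Id1 and Id3, inhibitors of basic helix-loop-helix factors, were higher by 1.70 in Ctrl and by 1.89 and 3.20 in cKO.

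A list of genes known to be induced by tissue dissociation was high in members in both libraries. Without the 8 score genes, which it contains, 11 of 21 were at least 1.5-fold higher in Ctrl and 12 in cKO, with 0 lower. Of all genes, 6.92% were higher and 10.2% lower in Ctrl, and 9.38% and 18.4% in cKO. The dissociation list overlaps with the immediate early and chaperone lists, and all lists were chosen with earlier results of these data known. Whether the response arose in the gland or during digestion was not tested, since both libraries were digested and sorted.

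Within the gate, 9 genes outside the score were mostly higher in each higher bin of it. All 9 were already known to be higher in members, which fill the bins above the 95th percentile. A rise into those bins was thus given by the choice of genes. Hsph1 went from 50.8 CPM in the lower 50% of Ctrl cells by score to 203 between the 90th and 95th percentile, 361 up to the 99th and 1481 above. In cKO the same bins held 39.0, 111, 295 and 1070. Nr4a1 went from 5.86 to 24.2, 59.5 and 123 in Ctrl and from 4.31 to 26.1, 83.3 and 345 in cKO. Id3 broke the pattern in Ctrl, where it was at 155 between the 95th and 99th percentile and at 99.4 above. Hbegf, a ligand of the EGF receptor, was at 319 and then 286 in the same bins of cKO. The top bin held only 22 Ctrl and 39 cKO cells, and median UMIs per cell were 22318 and 9011 there.

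**Figure D4:**
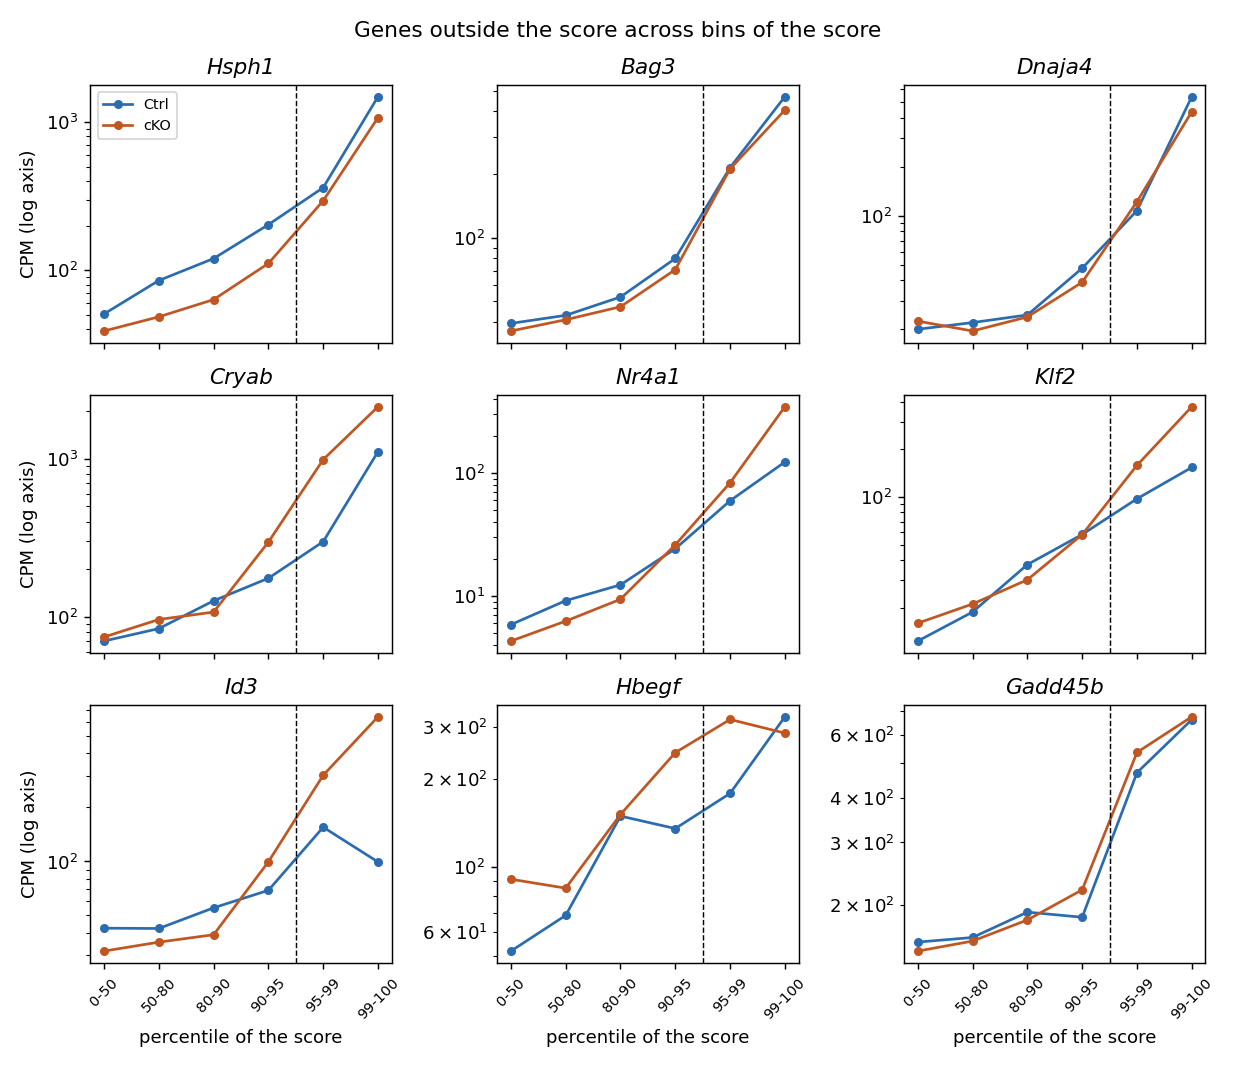
Summed CPM (log axis) of 9 genes outside the score in 6 percentile bins of the stress score, in Ctrl and cKO, with the 5% cut dashed. The genes were already known to be higher in members, so a rise past the cut was given by that choice. Hsph1 goes from 50.8 to 1481 in Ctrl and from 39.0 to 1070 in cKO, whereas Id3 in Ctrl falls back from 155 to 99.4 in the top bin.

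Other stress programmes did not follow as groups. Over all genes, 6.92% were at least 1.5-fold higher and 10.2% lower in Ctrl members, and 9.38% and 18.4% in cKO. These shares also apply to the counts of every list below. Of 13 genes of the unfolded protein response, which answers misfolding in the endoplasmic reticulum, 0 were at least 1.5-fold higher and 1 lower in Ctrl members, and 1 was higher and 2 lower in cKO. Herpud1, of endoplasmic reticulum degradation, was at -0.67 and -0.81, and Dnajb9 at 0.33 and 0.60. Of 12 integrated stress response genes, 2 were higher in each library and 3 and 5 lower. The higher ones were Ddit3, the factor CHOP, at 1.03 and 1.89, and Ppp1r15a, which directs dephosphorylation of eIF2-alpha, at 0.75 and 1.03. Chac1, which degrades glutathione, was at -1.27 and -1.66, and the pseudokinase gene Trib3 at -0.83 and -0.87. Of 12 oxidative stress genes, 0 were higher and 0 lower in Ctrl, and 2 were higher and 1 lower in cKO, with Hmox1, haem oxygenase, at 0.52 and 1.02.

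Among 13 p53 target genes, 3 were at least 1.5-fold higher and 0 lower in Ctrl members, and 4 higher and 2 lower in cKO. Gadd45b, which is also induced by other stresses, was highest in UMIs of these, at 499 against 165 CPM in Ctrl and 554 against 161 in cKO. The pro-apoptotic gene Pmaip1 was at 1.70 and 1.45, from 20 and 16 member UMIs, and Bbc3 at 0.43 and 1.13. Of 12 apoptosis genes, 0 were higher in either library, and 0 and 3 were lower. Mcl1, a survival factor, was at 0.54 and 0.51, and Casp8 at -0.37 and -0.81.

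Of the NF-kB and cytokine list, 1 of 14 was at least 1.5-fold higher and 2 lower in Ctrl members, and 1 of 15 higher and 4 lower in cKO. The shares over all genes were 6.92% higher and 10.2% lower in Ctrl, and 9.38% and 18.4% in cKO. Cxcl5, a neutrophil-attracting chemokine, was at 22.9 CPM in Ctrl members against 181 in the rest and at 25.01 against 111 in cKO, which are log2 ratios of -2.98 (-3.32 to -2.67) and -2.14. No member held more than 5.74 UMIs per 10000 of it, while other gated cells reached 118 in both libraries. The larger number of other cells by itself raises their highest value. A single cell held 35% of the Ctrl and 23.0% of the cKO members' UMIs of Cxcl5. Reg3g, a secreted antimicrobial lectin, was at -2.18 and -2.11. Ccl20, a chemokine, was at -1.90 and -2.26, from 13 and 6 member UMIs, of which 69.2% and 50% lay in 1 cell. Among 10 and 11 measured interferon-stimulated genes, 2 and 3 were higher and 1 and 2 lower, with Cxcl10 at 1.89 and 1.22.

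Of the other genes lowest in members in both libraries, Krt4, a keratin of stratified mucosa, was at -1.54 and -1.76. Klk10, a secreted serine protease of the kallikrein family, was at -1.14 and -1.69. Alox15, a lipoxygenase, was at -1.09 and -1.13, and Padi2, which converts arginine to citrulline, at -1.23 and -1.26. The centromere genes Cenpa (-1.44 and -1.14) and Cenps (-1.46 and -2.15) were among them. The remaining ones, Rbms3, Siah1b, Ccdc162, Mks1, Lmf1 and Ttc39c, lay between -1.11 and -1.78.

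Summed over cells, proliferation genes were low in members. Of 12 mitotic and S phase genes, 9 were at least 1.5-fold lower in Ctrl members and 10 in cKO, and 0 higher, with medians of -1.84 and -2.25. The counts behind these values were small. The median list sum was 0.560 UMIs per 10000 in Ctrl members against 0.586 in the rest, and 0 against 0.432 in cKO. At least 10 UMIs of the list were found in 1.85% of Ctrl members against 3.48% of the rest. In cKO it was 0% against 1.97%, so few cells of either side carry the difference. Top2a, which untangles DNA in mitosis, had 5 UMIs in Ctrl members and 3 in cKO, against 5.98 and 9.86 CPM in the rest. Ube2c, of mitotic protein turnover, had 3 and 8, and Cdk1, the mitotic kinase, 3 and 2. No Ctrl member held more than 3.12 UMIs per 10000 over the whole list and no cKO member more than 4.44, while single cells of the rest reached 66.3 and 77.2. The rest holds many more cells, which by itself raises its highest value.

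**Figure D5:**
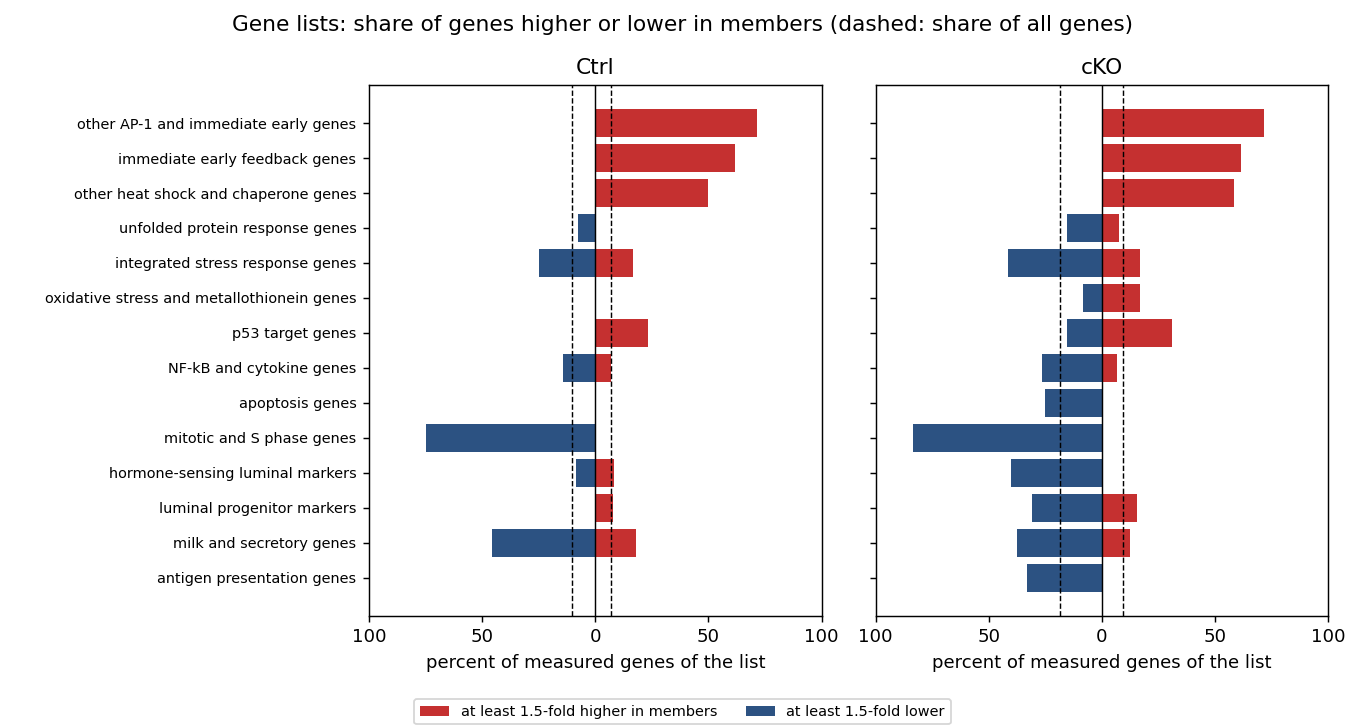
Percent of the measured genes of each list at least 1.5-fold higher (red, to the right) or lower (blue, to the left) in members than in the rest, in Ctrl (left) and cKO (right), with dashed lines at the share of all genes. The immediate early, feedback and chaperone lists extend to the right only, and the mitotic and S phase list to the left only.

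Members expressed epithelial genes at levels near those of the rest. Krt8, the partner keratin of Krt18, was higher by 0.31 and 0.42. Of 10 keratin and luminal genes, 0 were at least 1.5-fold higher or lower in Ctrl, and 1, the tight junction gene Cldn3 at 0.67, was higher in cKO. Elf3, an epithelial ETS factor proposed as a marker of these cells, was at 90.6 against 55.1 CPM in Ctrl and at 156 against 65.4 in cKO. Its median member held 0.862 UMIs per 10000 in Ctrl and 1.19 in cKO, against 0.414 and 0.401, and the highest other Ctrl cell, at 10.3, was above the highest Ctrl member, at 6.53. The ratios of 0.72 and 1.25 were the smallest among the 6 genes named as markers of the members, and the other 5 were part of the score.

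Members came from both luminal kinds and in a larger share from cells with progenitor genes than the rest did. By the larger of the mean log levels of 12 hormone-sensing and 13 luminal progenitor markers, 41.7% of Ctrl members (32.3 to 51.5) were on the hormone-sensing side, against 55.1% of the rest. In cKO it was 43.5% (36.4 to 50.8) against 55.1%. Put the other way, members made up 3.86% of the hormone-sensing side and 6.44% of the progenitor side in Ctrl, and 4.00% and 6.23% in cKO. The median hormone-sensing level, a mean natural log of 1 plus UMIs per 10000, was 0.91 in members against 1.44 in Ctrl and 0.88 against 1.24 in cKO. The progenitor level was 1.29 against 1.27 and 0.998 against 1.11. The score genes take a larger share of a member's UMIs, which lowers all other levels, and its part in this was not tested.

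Stress genes were high in the members of both sides. Hspa1a and Fos are score genes, so for them this was largely given by the choice of members. Hspa1a was higher by 4.94 log2 units on the hormone-sensing side of Ctrl and by 3.71 on the progenitor side, where the rest already held 419 CPM against 168. In cKO the ratios were 5.67 and 4.80. Fos, in contrast, had the smaller ratio on the hormone-sensing side of Ctrl, 1.39 against 2.06, and there the rest was at 1383 against 748. Id3 was higher by 2.10 on the hormone-sensing side of Ctrl and by 0.59 on the progenitor side, and by 3.62 and 2.37 in cKO. Cryab reached 4.48 on the hormone-sensing side of cKO and 2.98 on the progenitor side.

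Single luminal markers moved unevenly. Of 12 measured hormone-sensing markers, 1 was at least 1.5-fold higher and 1 lower in Ctrl members, and of 10 in cKO, 0 and 4. Ly6a was at -0.78 and -0.94, the progesterone receptor Pgr at -0.37 and -0.61 and the oestrogen receptor Esr1 at -0.28 and -0.40. Areg, an EGF receptor ligand made by hormone-sensing cells, was at -0.36 and -1.40, while Hbegf was at 1.44 and 1.6. Of 13 progenitor markers, 1 was higher and 0 lower in Ctrl, and 2 were higher and 4 lower in cKO. The receptor kinase gene Kit was at 1.01 and 1.66, and the transferrin gene Trf at -0.23 and -1.13.

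Markers of other cell types were near 0 in most members. All 9 T, NK and B cell markers were at 0 in cKO members, and 7 of 9 in Ctrl members. Of 9 myeloid markers, Lyz2, Csf1r, Tyrobp, C1qa and C1qb were at 0 in Ctrl members and none in cKO members. Both measured myeloid genes were at least 1.5-fold higher in Ctrl members, and 2 of 4 were higher and 1 lower in cKO. They were Cd74, of MHC class II, at 1.61 and 1.16, and the lysosomal gene Cd68 at 0.83 and 1.01. The measured fibroblast marker, Dcn, was at -1.28 and -0.88. The summed myeloid level ran from 0 to 4.64 UMIs per 10000 in Ctrl members and to 11.8 in the rest, and to 15.7 and 23.4 in cKO. Basal markers had a median sum of 0.549 against 0.272 in Ctrl and 0.529 against 0.315 in cKO, with highest cells at 39.5 against 171 and 167 against 379. At least 10 basal UMIs were found in 14.8% of Ctrl members against 7.07% of the rest, and in 5.70% against 9.33% in cKO.

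The summed level of the 8 endothelial markers ran from 0 to 48.9 UMIs per 10000 in Ctrl members, with a median of 0, and from 0 to 13.6 in the rest. In cKO it ran to 14.5 and 97.2. A single Ctrl member held 96.3% of the members' UMIs of Plvap, 97.5% of those of Fabp4 and 72.5% of those of Pecam1. All 4 measured endothelial genes were at least 1.5-fold higher in Ctrl members. Without the cells with at least 10 endothelial or myeloid UMIs, 2 of them members in Ctrl and 5 in cKO, Plvap was at -0.21 and Fabp4 at -0.33 in Ctrl, while Pecam1 was still at 0.60. In cKO Plvap went from -0.83 to 0.54. Hspa1a was at 4.34 and 5.23, and Hsph1 at 2.72 and 3.0, without these cells.

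The members of both libraries were then compared. Since each library has its own cut, the rule sets a higher score for cKO. The Ctrl cut was reached by 6.44% of cKO gated cells (5.69 to 7.27), and by 6.08% with all cells thinned to 2000 UMIs. The Ctrl shares, 5.03% and 5.02%, were set by the cut itself and are not measured values. With the 4 immediate early genes alone the cKO share was 8.03%, and with the 4 heat shock genes alone 4.26%. With all 8 genes and the top 10% cut of Ctrl, the cKO share was 9.22%, below the 10% set in Ctrl. At the top 2% cut it was 3.20%, above the 2% set in Ctrl. The direction of the difference from Ctrl thus depended on the arm and on the cut. With 1 library each, the difference cannot be told apart from one in handling.

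Atf3 was 1.36 log2 units higher in cKO than in Ctrl members and 0.74 higher in the cKO rest. Fos was higher by 1.30 in members and 0.33 in the rest, and Hspb1 by 0.66 and -0.02. Hspa1a was at -0.15 in members but at -1.08 in the rest, so that the larger member ratio of cKO came with a lower level in its other cells. Hsph1 was at -0.42 and -0.71. Cryab was higher by 1.44 in members and 0.17 in the rest, and Id3 by 1.23 against -0.27.

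Of 8461 genes with at least 40 UMIs over the members, 204 (2.41%) were at least 2-fold higher in cKO members and 402 (4.75%) at least 2-fold lower, or 274 and 272 with ratios centred on the median. Of these 606 genes, 270 (44.6%) were 2-fold different in the same direction in the rest, and over all genes compared the Pearson r between both sides was 0.74. Crym, a thyroid hormone binding protein, was higher by 5.25 in members and 3.01 in the rest, from 4 UMIs in Ctrl members. The tryptophan-degrading enzyme Ido1 was higher by 4.30 and 5.07, and the secreted glycoprotein gene Glycam1 by 3.60 and 2.49. The cornified envelope gene Sprr1a was higher by 3.44 and 4.35. Krt4 was higher by 2.99 and 3.20, and Foxj1, a regulator of motile cilia, by 2.62 and 3.80. Aoc1, Fam25c, Rsad2 and Hs3st6 lay between 2.76 and 3.89 in members. A single cell held 30.9% of the cKO members' UMIs of Glycam1, 24.6% of Sprr1a, 35.4% of Rsad2 and 16.3% of Foxj1.

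Calca, the calcitonin and CGRP gene, was at 2086 CPM in Ctrl members and had 1 UMI in all cKO members, a log2 ratio of -12.82 (-18.13 to -10.35), with -11.71 in the rest. Olfm4, a secreted glycoprotein gene, was at -7.18 and -4.61, and also had 1 UMI in cKO members. The aldehyde dehydrogenase gene Aldh3a1 was at -6.14 and -6.12. Plac8 was at -4.45 and -4.04, and the angiotensin receptor gene Agtr1a at -3.78 and -4.22. Vwf, Ly6c1, Serpine2 and Acot1 lay between -3.63 and -2.80 in members. Ccnd1, a cyclin named among targets of the miR-200 family, was higher by 0.80 in members and 0.60 in the rest. The microRNAs themselves were not analysed here, so the deletion was not checked in these libraries.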

How the data were processed

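Single-cell RNA-seq libraries (10x Chromium 3′ v2, per the labels' protocols) were analysed as 1 Ctrl and 1 cKO library. The deposited values were counts, whole UMIs per gene and barcode without normalization, made with Cell Ranger 2 on mm10 per the submitters' processing notes. The file headers record software 3.0.0, so the version is unsettled. The members and gene lists were chosen with earlier results of these data known. Members were defined as in the report. Counts were summed over members and over the rest, divided by the summed UMIs and given per 1000000 (CPM). Ratios carry exact conditional binomial intervals and shares exact Clopper-Pearson intervals (95%), for counting error only, and PCR and free RNA are not covered. A fold of 2 (genes with at least 400 UMIs in a library, or 40 over the members of both) or 1.5 (lists, at least 100 UMIs) was called without a test, since there was 1 library per group. The ratio script was run on simulated counts with known folds.

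Named genes were the score genes and Elf3, the 20 highest and 15 lowest of both libraries, up to 4 genes per list, the 10 highest and 10 lowest between libraries, up to 6 opposite between libraries, and Krt8, Krt18, Ccnd1, Esr1 and Pgr. Not every named gene is printed, and a result for 1 of them is not reported here. Clone-named genes and pseudogenes were left out, and the 20, 15, 10 and 6 had to be detected in at least 10% of the cells of the higher side. Doublets were called with Scrublet in scanpy 1.11.5 and kept. Python 3.11.15, numpy 2.4.6, scipy 1.17.1 and pandas 2.3.3 were used. Alternatives varied the gate, cut, depth, score genes, scaling and minimum, and 2 more, without cells with endothelial or myeloid UMIs and totals without the score genes, were chosen after seeing the data.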

Additional observations from a re-analysis of the deposited data

Results flagged for a closer look

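In 6 genes the members lay at least 1.5-fold above the rest in one library and at least 1.5-fold below it in the other. With 1 library per group these differences were not tested. Tagln, an actin-binding basal marker, was at a log2 ratio of 1.38 in Ctrl and -0.98 in cKO, and the top Ctrl member held 36.5% of the member UMIs. Lgals1, a galectin, was at 2.03 and -0.78, with 85.9% of the Ctrl member UMIs in 1 cell. Gdf15, a stress-induced cytokine, was at 1.46 and -0.87, with 45.2% in Ctrl and 61.7% in cKO of the member UMIs in 1 cell. Fxyd5 was at 1.04 and -0.69, Hacd1 at 0.79 and -0.91, and Leng9 at -0.78 and 0.67. Over all genes compared in both libraries, 10 were opposite at this fold.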

How the results depend on the processing

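No paired analysis was possible because each group has 1 library. The 103 higher and 105 lower genes of Ctrl, the 188 and 298 of cKO and the 204 and 402 between members changed as follows where a count moved by over 1.5 times. With the top 2%, the counts were 241 and 655 in Ctrl, 349 and 1046 in cKO, and 115 higher between members. With the top 10%, they were 47 and 37, 91 and 96, and 332. With levels as means over cells, they were 205 and 330 in Ctrl and 307 and 622 in cKO. Ratios centred on their median gave 307 and 153 in cKO. A minimum of 100 UMIs (10 between libraries) gave 282 and 354, 408 and 662, and 566 and 898. With no minimum beyond 1 UMI they were 6097 and 538, 6319 and 883, and 2016 and 2038. Choosing members on a random split of the UMIs and measuring on the others gave 64 higher genes in Ctrl. Leaving out the 5% deepest cells gave 159 lower genes in Ctrl. The 4 immediate early genes alone gave 61 and 64 in Ctrl. The 4 heat shock genes alone gave 353 lower genes in Ctrl and 249 lower between members. The cKO share at the Ctrl cut was 3.20% with the top 2%, 9.22% with the top 10%, 8.03% with the immediate early genes and 4.26% with the heat shock genes. The cut itself sets the Ctrl share, at about 2% with the top 2%, 10% with the top 10% and 5% with either arm. The cKO share was thus above that of Ctrl with the top 2% and below it with the top 10%. A lower minimum tests more genes, and a summed count of 0 was set to 3 counts in the ratios. With no minimum, a gene without UMIs in the members could thus be called higher. Krt6b, with 0 UMIs in cKO members, had a log2 ratio of 6.07 there. The cause of the other changes was not tested. Of the members, 79.6% in Ctrl and 90.7% in cKO were also chosen with cells thinned to 2000 UMIs, and 93.5% and 95.3% from a random split of the UMIs.

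Of 4710 log2 ratios of named genes under the alternatives, 3425 stayed within the counting interval of the reported value. Sign changes were seen in 28 of 2160 values with a reported ratio of at least 2-fold, in 22 of 1050 between 1.5-fold and 2-fold and in 140 of 1500 below, and the first 28 are given here. Nr4a1, Hsph1, Bag3, Klf2 and Cryab kept their direction under all 15 alternatives to which they apply. The score genes did too, with Hspa1a between 3.23 and 4.94 in Ctrl and between 4.4 and 5.49 in cKO. Most alternatives still chose cells by these same genes, so a kept direction of the score genes was largely given by that choice. Only the scores of a single arm left the genes of the other arm out. Each score gene was still higher in both libraries under the score of the other arm. The lowest Hspa1a values in both libraries were those with the immediate early genes. In Ctrl, with the gate at 100 per 10000, Glycam1 was at 0.40 and Lgals1 at -0.76. With the top 2%, Plvap was at -1.34, Fabp4 at -0.47, Fn1 at -0.19, Lgals1 at -0.33 and Fxyd5 at -1.19. With the top 10%, Ifit1 was at 1.38. With thinned cells, Plvap was at -0.93, Pecam1 at -0.0204, Fabp4 at -3.67, Flt1 at -1.23 and Ifit1 at 1.64. With the immediate early genes, Plvap was at -1.07, Fabp4 at -1.80 and Flt1 at -2.38. With the heat shock genes, Rsph1 was at -0.32, Ifit1 at 1.42 and Lgals1 at -0.55. Without cells with endothelial or myeloid UMIs, Glycam1 was at 0.25, Plvap at -0.21, Fabp4 at -0.33 and Flt1 at -0.21. In cKO, Rsad2 was at -0.41 and Calca at 2.21 with the top 2%, Calca at 0.75 with the immediate early genes, and Fabp4 at 1.43 with the top 10% and at 0.23 without cells with endothelial or myeloid UMIs. Calca had 1 UMI in all cKO members, which include the top 2%, and a sum of 0 was set to 3 counts. Its 2.21 is therefore not a higher level in those cells. Tagln in cKO was at 0.21 with thinned cells, Gdf15 at 0.11 with the immediate early genes and Fxyd5 at 0.20 with the heat shock genes.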

Other observations

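Cells outside the Krt18 gate also reached the scores of the members. Of cells with most UMIs in basal markers, 5.38% (4.13 to 6.87) in Ctrl and 1.38% (0.758 to 2.31) in cKO were at or above their library's cut. Of cells with most UMIs in endothelial markers it was 10.9% (5.95 to 17.96) and 3.66% (2.25 to 5.6). Median depth was 10307 and 7295 UMIs in the basal and 19020 and 20135 in the endothelial cells. Hspa1a was at 800 and 174 CPM in the basal cells.

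Among genes of secretion and metabolism, 5 of 11 milk and secretory genes were at least 1.5-fold lower in Ctrl members and 2 higher, and 3 of 8 lower and 1 higher in cKO. For this and the next lists, 10.2% of all genes were lower and 6.92% higher in Ctrl, and 18.4% and 9.38% in cKO. Spp1, osteopontin, was at -0.84 and -1.40, and Xdh, of milk fat secretion, at -0.50 and -1.83. Of the 12 hypoxia and glycolysis genes, 2 were higher in each library and 0 and 1 lower, the higher being the vasoactive peptide gene Adm at 1.05 and 1.45 and the glucose transporter gene Slc2a1 at 0.75 and 0.69. Of 13 lipid synthesis genes, 1 was higher in each library and 0 and 3 lower. Of the antigen presentation genes, 0 of 8 differed at this fold in Ctrl, and 3 of 9 were lower in cKO. The nuclear RNA Neat1 was at 0.53 and 1.34.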
